A study of Caenorhabditis elegans with 2 samples.

Results

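The regions described here are the MAB-5 peaks on the X chromosome of Caenorhabditis elegans. They are all peaks whose chromosome is X in the deposited list of peaks that passed the irreproducible discovery rate (IDR) procedure, which keeps peaks by how reproducibly they rank in replicates. There are 432 of them among 2197 peaks on assembly ce11. The other peaks are 1742 on the autosomes and 23 on the mitochondrial genome, so X holds 432 of 2174 nuclear peaks.

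Binding of MAB-5 tagged with eGFP was measured by chromatin immunoprecipitation and sequencing in whole larvae of the L2 stage. The data form 1 group with 2 biological replicates, in which X and the autosomes can be compared only within the same libraries. Both replicates came from strain OP27, genotype unc-119(ed3) III; wgIs27, which carries an insertion targeting mab-5, and were of mixed sex. Per the labels the antibody is mab-5, and the age of the animals is unknown. Because whole animals were used, a peak cannot be assigned to a tissue, and no cell type marker can be read from peak positions. Whether the tagged protein itself gives a peak was not tested, since no control sample was analysed here.

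The Hox protein MAB-5, of the Antennapedia class, patterns the posterior body and acts among others in the left Q neuroblast lineage and in the male tail. Hox proteins bind DNA together with PBC homeodomain partners such as CEH-20 at composite sites, written here as TGATNNAT. The worm X chromosome is also the target of a condensin-like dosage compensation complex, which lowers X expression in hermaphrodites and is recruited by sequence elements that lie on X. The 8-mer GCGCAGGG is the core of the motif described at those elements.

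The strongest X peaks are first shown as sequence, because later paragraphs describe the words they hold. Each line gives bases around the summit on the plus strand of ce11, 5′ to 3′, with 100 bp on either side. Capitals mark the 8-mer GCGCAGGG (CCCTGCGC where it lies on the minus strand), its variant GCGAAGGG (CCCTTCGC on the minus strand) or the Hox-PBC composite TGATNNAT on either strand.
X peak 1, chrX:11094097-11094297, nearest W02H3.3: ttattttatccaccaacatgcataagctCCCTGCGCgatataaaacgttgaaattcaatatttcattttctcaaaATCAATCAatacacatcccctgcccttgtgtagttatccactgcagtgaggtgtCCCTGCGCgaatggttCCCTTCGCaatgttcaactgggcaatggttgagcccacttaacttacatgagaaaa
X peak 2, chrX:13700729-13700929, nearest K02D3.1: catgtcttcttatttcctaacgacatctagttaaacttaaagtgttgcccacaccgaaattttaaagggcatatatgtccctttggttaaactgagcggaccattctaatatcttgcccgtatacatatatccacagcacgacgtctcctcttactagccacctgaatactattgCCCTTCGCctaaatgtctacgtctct
X peak 3, chrX:14525817-14526017, nearest nspc-17: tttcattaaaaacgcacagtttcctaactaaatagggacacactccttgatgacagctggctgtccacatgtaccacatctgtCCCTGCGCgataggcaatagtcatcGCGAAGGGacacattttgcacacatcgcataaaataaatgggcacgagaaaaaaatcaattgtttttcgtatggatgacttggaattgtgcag
X peak 4, chrX:8036301-8036501, nearest xol-1: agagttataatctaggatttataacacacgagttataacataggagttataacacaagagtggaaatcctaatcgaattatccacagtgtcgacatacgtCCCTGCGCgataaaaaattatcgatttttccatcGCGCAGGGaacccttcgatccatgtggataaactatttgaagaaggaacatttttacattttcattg
X peak 5, chrX:6296492-6296692, in an intron of mom-1: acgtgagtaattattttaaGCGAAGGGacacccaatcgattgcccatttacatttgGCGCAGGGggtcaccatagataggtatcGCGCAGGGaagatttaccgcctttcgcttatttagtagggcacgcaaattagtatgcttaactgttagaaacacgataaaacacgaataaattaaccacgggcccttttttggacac
X peak 7, chrX:9465742-9465942, nearest ZK899.6: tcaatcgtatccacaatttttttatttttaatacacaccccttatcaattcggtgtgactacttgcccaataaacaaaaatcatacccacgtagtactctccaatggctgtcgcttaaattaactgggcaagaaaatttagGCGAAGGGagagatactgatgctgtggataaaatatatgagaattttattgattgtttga
X peaks 11 and 12 are shown for contrast, as the strongest without the 8-mer or its variant, and X peak 49 for a composite upstream of a migration gene. X peak 11 does hold other one-base changes of the 8-mer, GCGGAGGG (read as ccctccgc) and ACGCAGGG, which are not in capitals.
X peak 11, chrX:11937452-11937652, nearest F55G7.5: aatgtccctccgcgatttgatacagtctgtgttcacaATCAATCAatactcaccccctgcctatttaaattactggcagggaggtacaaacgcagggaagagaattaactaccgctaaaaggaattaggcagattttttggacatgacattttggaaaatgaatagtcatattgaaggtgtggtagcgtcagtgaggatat
X peak 12, chrX:5841196-5841396, nearest puf-9: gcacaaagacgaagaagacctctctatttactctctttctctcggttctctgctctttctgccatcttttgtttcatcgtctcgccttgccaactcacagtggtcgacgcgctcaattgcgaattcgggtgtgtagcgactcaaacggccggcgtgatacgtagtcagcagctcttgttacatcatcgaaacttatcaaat
X peak 49, chrX:4802436-4802636, nearest mig-13: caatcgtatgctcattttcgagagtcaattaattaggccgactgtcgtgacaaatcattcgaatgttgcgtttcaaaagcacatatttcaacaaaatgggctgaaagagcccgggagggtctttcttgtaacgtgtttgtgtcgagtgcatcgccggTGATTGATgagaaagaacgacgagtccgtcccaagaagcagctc

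X peaks were as strong as autosomal peaks in the middle of the list but held many of the top places. The signal, the authors' pooled score for a peak, ran on X from 29.7 to 361 with a median of 44.1. On the autosomes it ran from 29.6 to 336 with a median of 44.05. X held 19.9% of nuclear peaks (95% Wilson interval 18.2 to 21.6, counting error only) with 17.7% of the nuclear genome, or 24.4 peaks per Mb. The autosomes ranged from 15.3 peaks per Mb on V to 27.1 on III, so the density of X lay inside their range. Of the 20 strongest nuclear peaks, 10 lay on X (50%, interval 29.9 to 70.1), and replicates 1 and 2 alone gave 8 and 9. Of the 50 strongest, 13 lay on X, and of the 100, 200 and 500 strongest, 20, 40 and 94. The share of X was thus highest in the first places. From the 100 strongest on it lay at 18.8% to 20%, against 17.7% of the nuclear genome. No test was made of these shares, since the design has 1 group.

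**Figure D1:**
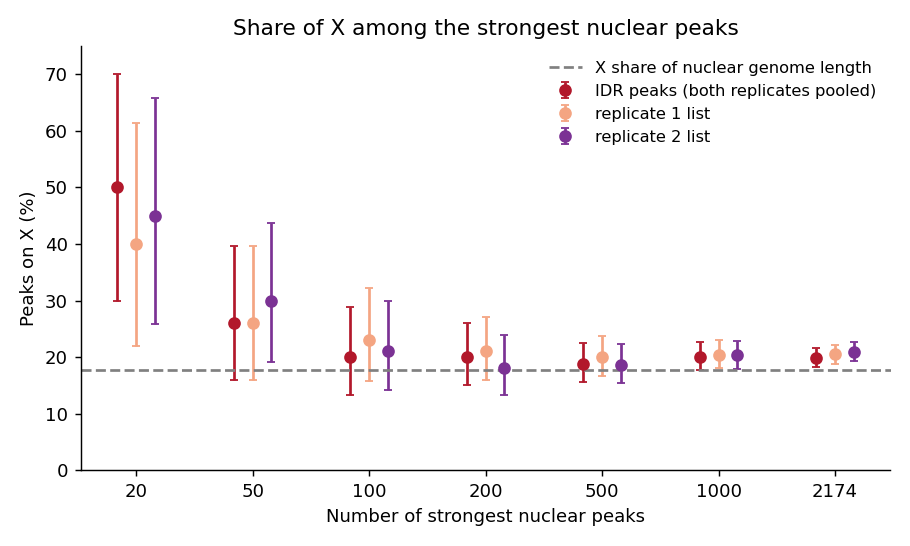
Percent of peaks that lie on X among the strongest nuclear peaks (vertical axis) against how many of the strongest are counted (horizontal axis), for the pooled IDR list and for each replicate's own list. Points are shares, bars 95% Wilson intervals, and the dashed line is the 17.7% of nuclear sequence that X makes up. The share of 50% among the 20 strongest IDR peaks is 40% and 45% in replicates 1 and 2. From the 100 strongest on the 3 lists lie at 18% to 23%, and at 2174 peaks all 3 intervals lie above the line.

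Ranks in the replicates' own lists, each of 30000 relaxed peaks, carry the replicate information, since the IDR signal is 1 pooled value. X peak 1 ranked 21 in replicate 1 and 23 in replicate 2, X peak 2 ranked 22 and 24, and X peak 5 ranked 25 in both. Ranks count mitochondrial peaks too. X peak 1, at place 19 of the whole IDR list, was its strongest nuclear peak. The 20 strongest X peaks ranked no lower than 198 in replicate 1 and 132 in replicate 2. Further down the list the replicates differed more. Of the 432 X peaks, 289 were within the first 2197 peaks of both replicates (66.9%, interval 62.3 to 71.2), against 1099 of 1742 on the autosomes (63.1%, interval 60.8 to 65.3). Replicate 1 alone held 331 X peaks at that depth and replicate 2 held 380. Over the 427 X peaks matched in both lists, Spearman's rho between the ranks was 0.47, and over 1725 autosomal peaks it was 0.46. These are descriptions across peaks of the same libraries, and the lists were also the input from which the peaks were chosen.

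The largest disagreement was at X peak 363 near F15G9.1 (signal 33.3), which ranked 29188 in replicate 1 and 1065 in replicate 2. X peak 256 in an intron of F47F2.1 (signal 41.0) ranked 19781 and 734, and X peak 374 near F48F7.5 (signal 32.6) ranked 28432 and 1292. The X peak 72 near F13C5.2 went the other way, at 131 in replicate 1 and 1255 in replicate 2. No match was found for 4 X peaks in replicate 1 (near ncs-3, ftt-2, K05B2.2 and R01E6.2) and for 1 in replicate 2 (near fax-1). At the lower edge of the IDR list, the last X peak inside had a signal of 29.67 near spc-1 (ranks 8222 and 1571), and the first X peak outside had 29.56 near dhhc-1 (ranks 1670 and 2828). A place in the IDR list therefore does not show that a weak X peak ranked alike in both replicates.

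The 10 strongest X peaks all held GCGCAGGG or its variant GCGAAGGG, which differs at 1 base. Of the 20 strongest, 7 held neither within 100 bp of the summit. Within 100 bp of the summit, 19 X peaks held the 8-mer (4.40%, interval 2.83 to 6.77), against 1 autosomal peak (0.0574%, interval 0.0101 to 0.324). In windows of the same length tiling the chromosomes, 0.0851% on X and 0.0553% on the autosomes held it. The 8-mer was known from earlier results on these data, so its presence in strong X peaks is a description. The signal of the 19 X peaks had a median of 156 and ran from 29.8 to 361, against a median of 44.0 over the 413 X peaks without it. Their median rank was 94 in replicate 1 and 88 in replicate 2, against 1143 and 1086 for X peaks without it. In 16 of the 19 both replicates ranked the peak within the first 2197. The ranges overlapped, with 10 of the 19 among the 100 strongest nuclear peaks and the weakest, X peak 430 near Y62H9A.9, close to the end of the list. GC content differed too, since the median over the X summit windows was 45.8%, against 42.8% at autosomal summits and 34.8% and 35.3% in the tiled windows of X and autosomes, and its part in these shares was not tested.

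The variant came from a search of all 24 one-base changes of the 8-mer, made after the peak sequences were seen. C4A, with positions counted from 1 at the 5′ end of GCGCAGGG, was picked because it was the most frequent change among the 20 strongest X peaks. GCGAAGGG lay in 12 X peaks (2.78%), 9 of them among the 20 strongest X peaks, and in 5 autosomal peaks (0.287%). G7A, next after C4A by its count over all X peaks, lay in 9 X peaks, 0 of them among the 20 strongest, and in 29 autosomal peaks. Among the 20 strongest X peaks the next was C2G, held by 2 of them. All 10 of the strongest X peaks held the 8-mer or C4A, 5 both, 3 the 8-mer alone and 2 the variant alone. The 6 X peaks with both had a median signal of 284, the 13 with the 8-mer alone 56.8, the 6 with the variant alone 107, and the 407 with neither 43.9. The strongest X peak with neither was X peak 11, at 207, and its window holds the one-base changes C4G and G1A. C4G lay in 3 X peaks (0.694%) and 13 autosomal peaks (0.746%), and G1A in 2 (0.463%) and 5 (0.287%). How many peaks hold any of the 24 changes was not counted. All nuclear peaks that hold the 8-mer or C4A were then left out, an alternative added after seeing the data. X had 1 of the 20 strongest remaining nuclear peaks, 5 of the 50 strongest and 12 of the 100 strongest. C4A was chosen on these peaks, so the values are a description.

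Other words recurred in the same peaks, found by listing every 8-mer present in at least 5 of the 20 strongest X peaks. TTATCCAC lay in 7 of the 20, in 2 of the other 412 X peaks and in 7 of 1742 autosomal peaks. AATCAATA, which overlaps the Hox-PBC composite by part of its letters, lay in 8 of the 20, 15 other X peaks and 45 autosomal peaks. TATCGCGC, which overlaps the start of the 8-mer, lay in 7, 2 and 6. The words can be read in the sequences of X peaks 1, 4 and 7 above. None was tested, because they were chosen on the peaks in which they are counted.

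**Figure D2:**
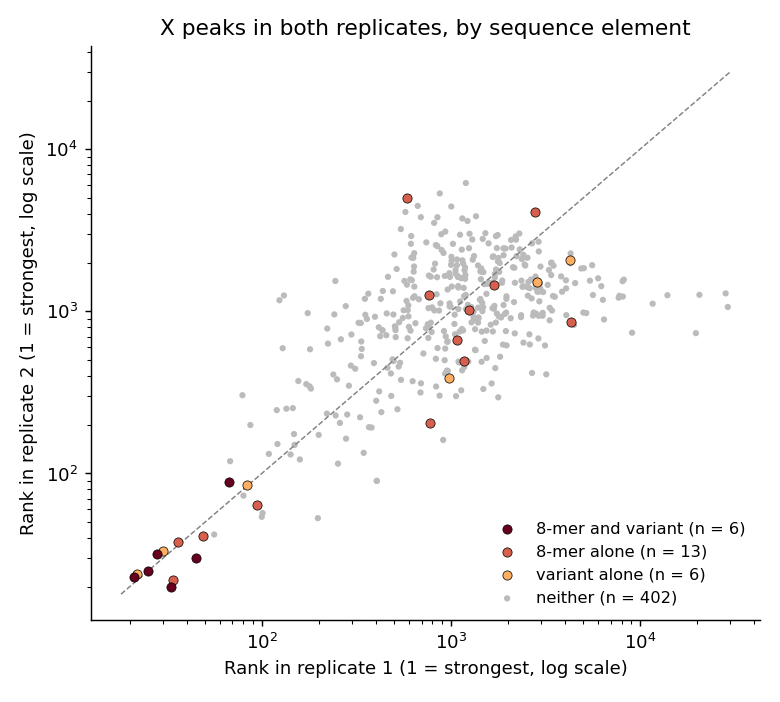
Rank of each X peak in replicate 1 (horizontal axis, log scale) and in replicate 2 (vertical axis, log scale), where 1 is the strongest, with peaks coloured by whether they hold the 8-mer GCGCAGGG, its C4A variant, both or neither within 100 bp of the summit. The dashed line marks equal ranks. Peaks with both elements sit at the lower left, at ranks of 21 to 67 in replicate 1, and the strongest peak with neither element, X peak 11, lies among them at ranks of 56 and 42.

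Flanking bases differed between the X copies of the 8-mer that lay in peaks and those that did not. On X the 8-mer occurs 81 times (4.57 per Mb), and 24 copies lay in IDR peaks (29.6%, interval 20.8 to 40.3). On the autosomes it occurs 233 times (2.82 per Mb), and 2 copies lay in IDR peaks (0.858%, interval 0.236 to 3.08). Where TC preceded the 8-mer, 14 of 19 X copies lay in peaks (73.7%, interval 51.2 to 88.2), against 10 of 62 X copies without TC (16.1%, interval 9.004 to 27.2). With TC before and A after, 12 of 13 X copies lay in peaks (92.3%, interval 66.7 to 98.6), with a median signal of 284. The same flanks occurred 2 times on the autosomes, in no peak, and TC alone 6 times, in no peak. Counts this small leave the autosomal share wide (for 0 of 6, up to 39.03%). The flank classes were formed after the sequences were seen, and 5 were examined.

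The sites below show these flanks, read 5′ to 3′ along the strand of the 8-mer, with the 8-mer in capitals. The first 6 lie in X peaks with TC before, the next 4 in X peaks without it, and the last 2 on X outside every IDR peak and every relaxed list.
Peak 1, chrX:11094125-11094132, minus: tatatcGCGCAGGGagctta
Peak 3, chrX:14525900-14525907, minus: cctatcGCGCAGGGacagat
Peak 4, chrX:8036435-8036442, plus: tccatcGCGCAGGGaaccct
Peak 6, chrX:4209266-4209273, minus: gctatcGCGCAGGGacacct
Peak 9, chrX:16682172-16682179, minus: aacatcGCGCAGGGaacatc
Peak 10, chrX:806674-806681, plus: attatcGCGCAGGGgtgttt
Peak 125, chrX:4395615-4395622, plus: agacaaGCGCAGGGagaact
Peak 203, chrX:2364899-2364906, minus: aattaaGCGCAGGGatatat
Peak 323, chrX:3456884-3456891, minus: ggcaggGCGCAGGGcggtgc
Peak 368, chrX:10596766-10596773, minus: ttgtgcGCGCAGGGgggcga
Outside, chrX:5859932-5859939, minus: acattcGCGCAGGGactaag
Outside, chrX:10664220-10664227, plus: ggtgtcGCGCAGGGgaggag
The first 6 belong to peaks with signals of 217 to 361, and the 4 without TC to peaks with signals of 32.9 to 56.8. These were picked to show the contrast, and over all 24 copies the classes overlap. The 14 copies with TC lay in peaks of 29.8 to 361 (median 263), and the 10 without it in peaks of 32.9 to 296 (median 51.2). Copies can share a peak, and the 14 with TC fell in 11 peaks. X peaks 5 (296) and 10 (217) held copies of both kinds. Among peaks whose copies all lacked TC, the highest signal was 163, at X peak 13. The intervals given for copies do not allow for shared peaks. The site at chrX:5859932 is the exception among the 13 with TC before and A after. It has the flanks of the strong sites and lay in none of the lists.

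The in-peak copies lay close to the summits, at a median of 42 bp and at most 204 bp. The 24 copies fell in 19 peaks, of which 5 held more than 1. Counting copies inside the peak or within 100 bp of the summit gave 19 peaks each way and 18 in common, with the peak near B0302.2 only in the count by distance and X peak 13 near F19H6.5 only in the count inside the peak. The 19 peaks counted by distance were spread along X from 806690 to 17181436, with a median spacing of 790 kb (789898 bp) and gaps of 61134 to 2156192 bp. No 1 Mb bin of X held more than 2 of them. The X peaks with the 8-mer were thus spread over the chromosome.

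Most of the strongest X peaks lay between genes, and some of those lay in promoter windows. Of the 20 strongest X peaks, 15 lay between protein-coding genes, 3 in introns and 7 in a promoter window, with a median distance of 2144.5 bp to the nearest protein-coding start. A promoter window runs from 2000 bp upstream to 500 bp downstream of a gene start. X peak 1 (361) lay 3989 bp from W02H3.3, X peak 2 (315) 6078 bp upstream of K02D3.1, and X peak 3 (314) 736 bp upstream of nspc-17, a member of a nematode-specific peptide family. X peak 4 (302) lay 4912 bp upstream of xol-1, the switch gene that reads the X dose in sex determination. It lay nearer to a tRNA gene for arginine, 356 bp away, and a noncoding RNA gene, C18A11.13. X peak 5 (296) lay in an intron of mom-1, which encodes the Porcupine protein needed for Wnt secretion, and its nearest start was that of cest-16.

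X peak 6 (271) lay 1792 bp upstream of F20B6.9, X peak 7 (257) 2497 bp from ZK899.6, and X peak 8 (255) in an intron of Y41G9A.17. X peak 9 (227) lay nearest to F22H10.2 and X peak 10 (217) nearest to gtr-1. Below these the signal dropped to 207 at X peak 11 near F55G7.5 and to 165 at X peak 12. That peak lay 296 bp upstream of puf-9, which encodes a Pumilio-family RNA-binding protein, and ranked 100 in replicate 1 and 54 in replicate 2. X peaks 13 to 15 lay near F19H6.5 (163), the insulin-like peptide gene ins-39 (158) and the immunoglobulin-domain gene igcm-4 (158). X peak 16 (156) lay in a coding exon of the polyketide synthase gene pks-1, 15189 bp from the nearest start, C41A3.2. X peaks 17 to 20 lay near T27A8.7 (154), the F-box gene fbxb-58 (147), the sphingomyelin synthase gene sms-2 (143) and, in an intron, F09A5.3 (125). At X peak 17 the replicates stood furthest apart among the 20, at ranks 198 and 53. None of the 20 summit windows held a 36-base word that recurs in the genome.

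Across all X peaks, summits lay mostly between genes and less often in promoter windows than on the autosomes. Intergenic summits made up 69.4% on X and 70.1% on the autosomes, and intronic summits 25.5% and 24.7%. Promoter windows held 217 of 432 X summits (50.2%, interval 45.5 to 54.9), against 1085 of 1742 autosomal summits (62.3%, interval 59.98 to 64.5). X stood below each of the 5 autosomes, which ran from 57.9% on IV to 66.5% on III, although its interval overlapped that of IV, 52.6 to 63.1. Some summits lie in the windows of several genes at once. On X, 38 summits (8.80%) lay in the windows of 2 or more genes, against 516 autosomal summits (29.6%). Tiled windows had the same order, with 33.9% on X and 41.1% on the autosomes in promoter windows.

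The distance to the nearest protein-coding start had a median of 1327.5 bp on X (quartiles 343 and 3530) and 740 bp on the autosomes (quartiles 194.5 and 2595). For tiled windows the medians were 1929 bp on X and 1554 bp on the autosomes. Distances of over 5000 bp occurred for 60 X peaks (13.9%) and 191 autosomal peaks (10.96%). When genes of all kinds except piRNA genes were counted, the medians drew close, at 333 bp on X and 284 bp on the autosomes. A noncoding gene therefore often stood nearer to an X summit than a protein-coding one.

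**Figure D3:**
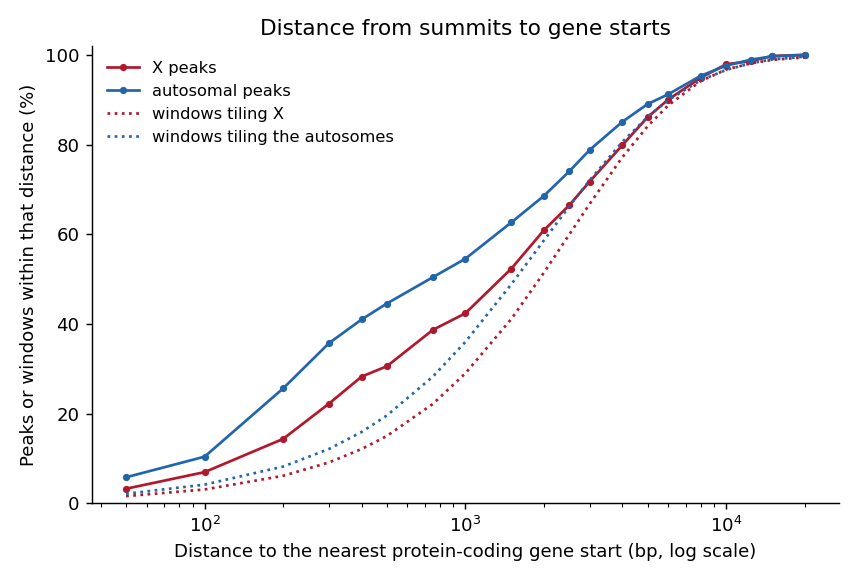
Cumulative percent of summits (solid lines with points) and of windows tiling the chromosomes (dotted lines) within a given distance of the nearest protein-coding gene start (horizontal axis, bp, log scale), for X in red and the autosomes in blue. Both sets of peaks lie nearer to starts than the windows of the same chromosomes. For peaks, the X curve runs below the autosomal one up to about 8000 bp, with medians of 1327.5 bp and 740 bp.

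A smaller share of X peaks than of autosomal peaks lay in the inner part of the chromosome. The inner 40% of X held 177 of 432 summits (41.0%, interval 36.4 to 45.7), against 900 of 1742 for the inner 40% of the autosomes (51.7%, interval 49.3 to 54.01), where single autosomes ran from 49.3% to 55.1%. Even placement along the length would put 40% of summits there, which lay inside the X interval and below the autosomal one. Bins of 1 Mb held 15 to 36 X peaks, apart from the 14 in the shorter last bin, with the most at 11 to 12 Mb. Neighbouring X peaks lay at a median of 10836 bp, and 35.2% had another within 5000 bp, against 11223 bp and 32.4% on the autosomes. Runs of at least 3 X peaks with gaps under 5000 bp numbered 16 and held 52 peaks. The runs of 4 lay in nhr-40, a nuclear receptor gene, at mdl-1, which encodes a MAD-like bHLH protein, upstream of lin-14, and at ftt-2, a 14-3-3 gene. In the ftt-2 run, X peaks 127 and 165 matched the same peak of replicate 2, ranked 1196. X peak 238 in that run had no match in replicate 1. Autosomal runs were not counted.

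**Figure D4:**
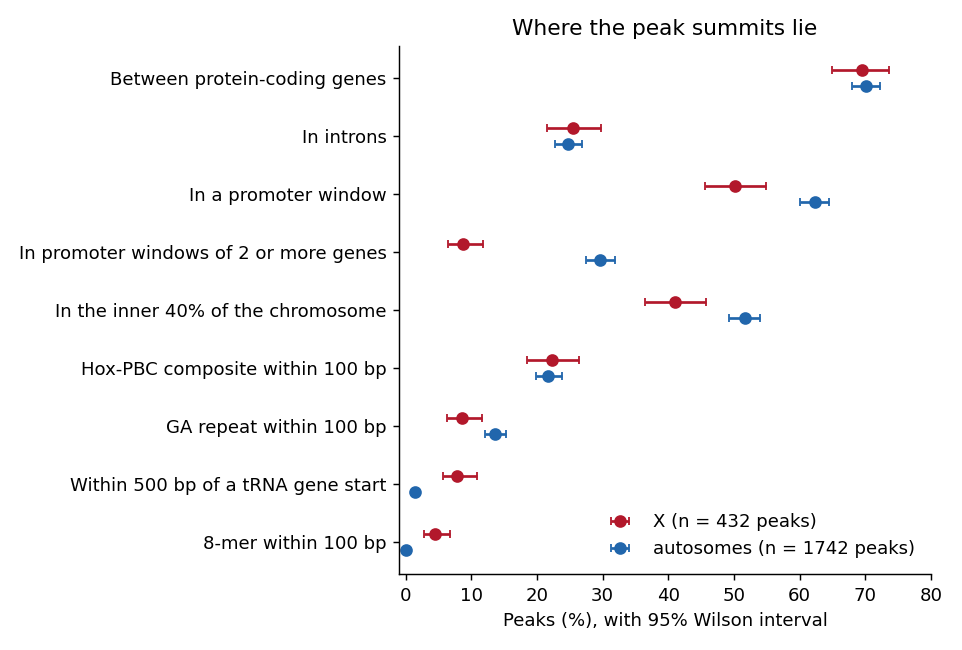
Percent of peaks (horizontal axis, with 95% Wilson intervals) whose summit has each property, for the 432 X peaks in red above the 1742 autosomal peaks in blue. Shares between genes, in introns and with a Hox-PBC composite lie within each other's intervals, promoter windows and the inner 40% of the chromosome are lower on X, and the tRNA and 8-mer rows are higher on X.

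Transfer RNA genes stood near more X summits than autosomal ones. X carries 276 of the annotated tRNA genes, against 57 to 78 on each autosome. Within 500 bp of a tRNA start lay 34 X summits (7.87%, interval 5.69 to 10.8) and 24 autosomal summits (1.38%, interval 0.928 to 2.04). Counted per gene, 41 of 276 X tRNA genes (14.9%, interval 11.1 to 19.5) and 28 of 336 autosomal ones (8.33%, interval 5.83 to 11.8) had a summit that near, and these intervals overlap slightly. The 34 X peaks had a median signal of 45.5 and ran from 31.5 to 302, and 25 were within the first 2197 of both replicates. After X peak 4, the strongest of them had a signal of 103.2 and lay 109 bp from the tRNA-Glu gene WBGene00022947.

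The peak at 95.6 stood between divergent tRNA-Gly and tRNA-Glu genes, WBGene00023110 and WBGene00023111, 29 and 88 bp away (ranks 146 and 253). One at 90.1 lay 62 bp from the tRNA-Tyr gene WBGene00014486 (ranks 156 and 372). The genes near summits covered most amino acids, with 5 of 20 for proline, 4 of 15 for glutamine, 4 of 17 for leucine, and 0 of 7 for cysteine and 0 of 5 for tryptophan. Of the 34 peaks, 23 lay between protein-coding genes and 11 in introns, among them introns of him-4, cat-1 and ajm-1. Copies of tRNA genes resemble each other, and in these 34 windows a median of 24.7% of 36-base words recurred in the genome, against 0% over all X peaks. The placing of reads from such copies was not stated in the labels, and its part in these counts was not tested.

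MicroRNA genes had few X summits near them, 4 of 74 genes within 500 bp (5.41%, interval 2.12 to 13.1), against 8 of 187 on the autosomes (4.28%, interval 2.18 to 8.21). All 4 belong to the cluster of mir-54, mir-55, mir-55b and mir-56 in an intron of F09A5.3. The peak 330 bp from mir-54 is X peak 20 (signal 125, ranks 109 and 132), and the peak 281 bp from mir-56 had a signal of 41.999 (ranks 1426 and 1180). The nearest summit to let-7, the heterochronic microRNA annotated as WBGene00002285, lay 1822 bp away with a signal of 54.5 (ranks 1342 and 580).

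The Hox-PBC composite was about as frequent at X summits as at autosomal ones. TGATNNAT, searched on both strands, lay within 100 bp of 96 X summits (22.2%, interval 18.6 to 26.4) and 379 autosomal summits (21.8%, interval 19.9 to 23.8). Tiled windows held it in 15.8% on X and 15.3% on the autosomes. Within X the share was 35.5% at intronic summits (39 of 110, interval 27.1 to 44.7) and 16% at intergenic summits (48 of 300, interval 12.3 to 20.6), the second close to the tiled share. On the autosomes the same classes gave 27.1% and 19.2%. The most frequent cores on X were TGATTGAT with 23 sites, TGATTTAT with 22 and TGATAAAT with 16. The median signal was 42.2 over X peaks with a composite and 44.9 over X peaks without it. The strongest X peak with a composite and neither the 8-mer nor its variant was X peak 11, and X peaks 49 near mig-13 (82.8) and 50 near tsp-20 (82.2) held TGATTGAT.

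A pair of further words was searched on both strands. The GA repeat GAGAGAGA lay at 37 X summits (8.56%, interval 6.28 to 11.6) and 237 autosomal summits (13.6%, interval 12.1 to 15.3), against 1.12% and 1.36% of tiled windows. The GATA-type word TGATAAG, which shares its first letters with the composite, lay at 8 X summits (1.85%, interval 0.941 to 3.61) and 43 autosomal summits (2.47%, interval 1.84 to 3.31), against 3.58% and 3.45% of tiled windows. A match describes letters within the window and not a bound site.

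Of 2731 protein-coding genes on X, 239 had a summit in the promoter window (8.75%), against 1677 of 17242 autosomal genes (9.73%). With summits inside the gene added, 315 X genes counted (11.5%). The median X gene had 1 summit within 20 kb (20000 bp) of its start, and 1124 had none (41.2%). The highest count was 7, at the zinc finger gene ztf-14, and 6 were reached by its neighbours M163.1, M163.8 and his-24, a linker histone gene, by K09E9.1, K09E9.3 and ergi-3, and by lin-14. Genes of 1 neighbourhood share summits, so these counts come from few places. Inside genes, mbl-1, which encodes the Muscleblind splicing regulator, and nhr-40 held 4 summits each, and ldb-1, a LIM domain-binding protein gene, and sax-3 held 3.

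X members of 15 gene lists of development, neurons, muscle and ribosomes were then counted, beside the 8.75% of all X genes with a promoter summit and 11.5% with one there or inside. The lists were written with earlier results of these data known, so the counts are descriptions. Heterochronic genes, which time larval development, had a promoter summit at 3 of 7 and a summit there or inside at 5. The highest was puf-9, at X peak 12. The temporal identity gene lin-14 (WBGene00003003) had 3 in its promoter window and 2 inside. Its strongest summit, in an intron 8058 bp downstream of the start, had a signal of 71.5 (ranks 492 and 506). The GW182-like gene ain-1 followed at 62.1 (1051 bp upstream, ranks 435 and 764) and the casein kinase gene kin-20 at 57.4 (in an intron, ranks 1548 and 516). The nuclear receptor gene daf-12 had one at 55.6, and alg-1 and hbl-1 had none, although hbl-1 had 5 within 20 kb.

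Among migration and axon guidance genes, 4 of 13 had a promoter summit and 7 one there or inside. The highest was mig-13 (WBGene00003245), which encodes a transmembrane protein required for anterior Q descendant migration, with a signal of 101 at 286 bp upstream (ranks 279 and 164). The Robo receptor gene sax-3 had its strongest summit in an intron at 71.8 (ranks 289 and 348), in a window that holds a composite. The actin-binding protein gene unc-115 had 71.4 at 139 bp upstream (ranks 262 and 673), and the glypican gene lon-2 had 51.2 in an intron (ranks 650 and 846). The netrin gene unc-6, with 46.9 in an intron, also held a composite. No summit in either place was found at slt-1, sdn-1, mig-15, let-2, efn-3 or dgn-1.

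Of 4 X-linked Wnt pathway genes, mom-1 and the Van Gogh gene vang-1 (47.6, 380 bp upstream, ranks 881 and 1122) had promoter summits. That of mom-1 had a signal of 36.4 (ranks 1865 and 1503) and lay 6 bp from a tRNA-Ala start. The strongest mom-1 summit, at 296, lay in an intron, 3480 bp downstream of the gene start. The beta-catenin gene bar-1 and the receptor gene lin-18 had no summit in the promoter window or inside. Of 3 X-linked Hox cofactor genes, ceh-40, ceh-60 and psa-3, none had one. Of 6 genes of dosage compensation and sex determination, sdc-2, which brings the dosage compensation complex to X, had one at 401 bp upstream (45.4, ranks 1393 and 853), and fox-1, an X-dose signal gene, had one in an intron (40.4, ranks 1578 and 1513). The genes xol-1, sdc-1, sex-1 and ceh-39 had none in either place, and X peak 4 lay outside the promoter window of xol-1.

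Neuronal lists were mixed. Of 8 synaptic vesicle genes 4 had a promoter summit, led by the diacylglycerol kinase gene dgk-1 (69.7, ranks 336 and 652), the liprin gene syd-2 (54.5, ranks 334 and 848) and the Munc18 gene unc-18 (39.6, ranks 1059 and 1710). The kinase gene sad-1 had 36.1 in an intron. Its promoter summit, X peak 411, had a signal of 30.5 and ranked 13992 in replicate 1 and 1258 in replicate 2. Of 10 motor and touch neuron genes, acr-2 had a promoter summit (39.03, ranks 1003 and 1938), and the motor neuron selector gene unc-3 had an intronic one with a composite (36.3, ranks 986 and 1074). Of 46 ion channel genes 2 had a promoter summit, acr-2 and twk-21 (34.6), and 2 more an inside one, clh-4 (50.1) and acr-9 (30.2). Of 34 neuropeptide genes 2 did, ins-39 (158) and nlp-76 (34.6), and of 6 innexin genes unc-7 did (48.7). Some of these summits had other features nearer. That of nlp-76 lay in an intron of nhr-17, 59 bp from a tRNA-Tyr start, and that of twk-21 lay 63 bp from a tRNA-Val start. The ins-39 peak, X peak 14, held the 8-mer.

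Of 23 nuclear receptor genes 3 had a promoter summit and 7 one there or inside, with nhr-1 (60.6, ranks 1178 and 454), nhr-48 (59.6, ranks 928 and 500), nhr-40 (48.3) and nhr-14 (35.5) the highest. Of 12 muscle genes 2 did, the LIM protein gene unc-97 (46.3) and the actin gene act-4 (34.3), and of 2 ribosomal protein genes rpl-11.2 did (119, ranks 149 and 150). Of 18 homeobox genes named ceh and 27 collagen genes on X, 0 and 0 had a summit in the promoter window or inside. The shares over such small lists are wide, and only values are given.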

How the data were processed

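The samples are 2 biological replicates of 1 group, and per their deposited text records the peak lists were made against a control alignment. The sources used here do not name the aligner, the peak caller, their versions or the IDR cutoff. Lists were deposited on ce11 and ce10. The authors made a signal score for each peak, with no stated scale, as deposited. The authors also made a −log10 q-value for each peak, which as deposited is capped, at 3.66 in the IDR list. The p-value column is unfilled. All 2197 IDR peaks occur unchanged in the authors' pooled list and are its strongest, so a signal is 1 pooled value. Depth is unknown, because no read counts are given.

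From these files, summits were annotated with Ensembl release 115 genes of WBcel235 (ce11), with sequence from the NCBI copy. All peaks fell within its chromosome lengths. Coordinates are 1-based. A peak matched one of another list where they shared 1 bp or more. Motifs were searched on both strands within 100 bp of summits. Python 3.11.15, numpy 2.4.6, pandas 2.3.3, scipy 1.17.1 and matplotlib 3.10.9 were used, and the scripts were tested on simulated data. Wilson intervals (95%) cover counting error only, and no test was made.

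Members and lists were chosen with earlier results of these data known. Genes named are those nearest to the 20 strongest X peaks, those with most summits within 20 kb, and up to 4 X members per list by signal, with others added after their values were seen. GAGAGAGA and TGATAAG were added after the design was written, and the C4A variant, flank classes, shared 8-mers, runs and recurring 36-base words after the peak sequences were seen. The alternatives tried were each replicate alone, the stronger 50% of the peaks, other windows and overlaps, and ce10 for counts.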

Additional observations from a re-analysis of the deposited data

How the results depend on the processing

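Of 55 alternative values, 38 moved by less than the interval of the main value and 17 by more. The share of X among nuclear peaks stayed at 19.8% to 20.97%, that of X summits near tRNA starts at 7.64% to 8.99%, and that of X peaks with GCGCAGGG at 3.01% to 6.57%, the last 2 above the autosomal share in all alternatives. The X promoter share lay below the autosomal one in 5 of 5 alternatives, at 38.7% with the window of 1000 bp upstream and 68.75% with that of 5000 bp, and the X inner share in 4 of 4, at 36.2% for the stronger 50% of peaks and 50.5% for the inner 50%. The median distance was longer on X in 4 of 4, down to 333 bp with genes of all kinds. The ratio of median signal, X over autosomes, ran from 0.975 to 1.01 and changed side in 2 of 4. In the stronger 50%, 75.1% of X summits were intergenic and 20.7% intronic, and 96.7% ranked within the first 2197 of both replicates. That last share was 57.6% when peaks had to cover 50% of each other and ran from 76.6% to 88.0% for 1 replicate alone. X genes with a promoter summit were 4.65% in the stronger 50%, and 6.41% and 14.7% with the narrow and wide windows. TGATNNAT was at 15.97% within 50 bp of X summits and 29.4% anywhere in the peak. Without peaks that hold the 8-mer or its variant, an alternative chosen after seeing the data, X had 12 of the 100 strongest nuclear peaks and 1 of the 20 strongest. The variant was picked on the 20 strongest X peaks, so a fall in the first places was largely fixed by that choice. No paired analysis was possible because the data hold 1 group. Depth is unknown, so weak peaks could not be judged by read counts.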
